A study of Mus musculus with 12 samples.

Results

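The annexin family was examined in left ventricular myocardium as every gene of the authors' list of changed genes whose symbol begins with Anxa and a digit. There were 6 such genes among 3939 listed: Anxa1, Anxa2, Anxa3, Anxa4, Anxa7 and Anxa11. Set beside them were the 4 listed genes whose symbols begin with S100a and a digit, S100a6, S100a10, S100a11 and S100a13. The mice were wild-type C57Bl6J/129X1 hybrids. They had received AngII/PE, which in cardiac research usually stands for angiotensin II with phenylephrine, or NaCl, in both cases for 3 days. RNA from the whole left ventricular wall was sequenced in 12 libraries: 3 from treated females, 3 from treated males, 3 from control females and 3 from control males. No further allele is given for either group, and nothing in the labels ties a library to a mouse of its own. The only values are the authors' average log2 fold change of 6 treated against 6 control libraries and its adjusted p-value. Values of single libraries were not analysed here. The depth is therefore unknown, no spread between libraries or sexes can be shown, and no error stands beside a value.

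Annexins are cytosolic proteins that bind acidic membrane lipids, above all phosphatidylserine, when calcium rises. They share a core of repeats that carries the calcium sites, and differ in the N-terminal tail, which binds partner proteins. Many of those partners are S100 proteins, small EF-hand calcium sensors that form dimers and bridge a pair of annexins, and so a pair of membranes. In muscle, annexins gather at tears of the plasma membrane and take part in sealing them. Annexin A1 is also secreted and signals through formyl peptide receptors in the resolution of inflammation, and annexin A2 with S100A10 holds plasminogen and its activator at the cell surface.

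Of the annexins, 5 rose and 1 fell. In the authors' deposited table, Anxa2 led with a log2 fold change of 1.67, which is 3.17-fold, and Anxa1 followed at 1.54. Anxa4 and Anxa3 rose less than these, Anxa7 less again, and Anxa11 was the member that fell. Each of the 4 S100a genes rose, and S100a11 exceeded every annexin at 2.20, or 4.60-fold, in the authors' deposited table. Membership required a listing, so that every member passed the authors' test says nothing about the family. Direction was free to vary, and size only within what the list holds. The 5% quantile of listed rises was 0.63 and that of listed falls -0.41, so small rises were scarcer in the list than small falls. The sizes, medians and split below depend on which genes were listed. Among all 3939 listed genes 56.2% were higher and 43.8% lower, and 9 of the 10 genes examined were higher. The median log2 fold change was 1.17 for the 6 annexins and 1.03 for the 4 S100a genes. Over all listed genes, rises and falls together, it was 0.67. The median of all listed rises alone was 1.06, so the S100a genes, all of them rises, had a median just below it. A log2 fold change of 1 or more was reached by 4 annexins and 3 S100a genes, beside 30.7% of all listed genes, and one of -1 or less by 0 of them, beside 6.96%. The 30.7% has rises and falls together in its base, and among the 2213 listed rises alone 1211 reached 1.

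The promoter windows of the genes with the largest rises, Anxa2, Anxa1 and S100a11, and of the gene that fell, Anxa11, are shown here because the members moved in unequal measure and in both directions. Each runs from 250 bases before to 50 bases after the gene's RefSeq start on GRCm38.p6, 5′ to 3′ on the gene's own strand. The gene spans given below are from GENCODE M21, whose starts can differ from those of RefSeq. The Anxa1 window lies wholly within that gene's GENCODE span, and the Anxa2 span begins before its RefSeq start. Capitals mark matches, on either strand, to the AP-1 motif TGANTCA, the MCAT motif CATTCC, the TATA motif TATAAA and the GC box GGGCGG. AP-1 is the binding motif of Fos and Jun family factors, MCAT that of TEAD factors, and the GC box that of Sp1. The windows lie at chr9:69453433-69453732 on the forward strand, chr19:20390622-20390921 on the reverse strand, chr3:93520246-93520545 on the forward strand and chr14:25841905-25842204 on the forward strand.
Anxa2: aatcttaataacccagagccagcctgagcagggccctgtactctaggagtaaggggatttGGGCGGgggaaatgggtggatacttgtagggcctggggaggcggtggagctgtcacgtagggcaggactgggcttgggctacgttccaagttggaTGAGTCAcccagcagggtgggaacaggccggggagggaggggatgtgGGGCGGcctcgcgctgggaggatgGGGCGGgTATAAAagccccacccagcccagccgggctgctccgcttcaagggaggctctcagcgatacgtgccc
Anxa1: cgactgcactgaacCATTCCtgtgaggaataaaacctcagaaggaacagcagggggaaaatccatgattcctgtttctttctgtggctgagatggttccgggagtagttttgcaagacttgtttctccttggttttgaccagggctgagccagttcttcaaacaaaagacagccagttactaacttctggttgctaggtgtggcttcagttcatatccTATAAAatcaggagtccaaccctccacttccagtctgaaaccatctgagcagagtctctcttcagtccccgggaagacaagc
S100a11: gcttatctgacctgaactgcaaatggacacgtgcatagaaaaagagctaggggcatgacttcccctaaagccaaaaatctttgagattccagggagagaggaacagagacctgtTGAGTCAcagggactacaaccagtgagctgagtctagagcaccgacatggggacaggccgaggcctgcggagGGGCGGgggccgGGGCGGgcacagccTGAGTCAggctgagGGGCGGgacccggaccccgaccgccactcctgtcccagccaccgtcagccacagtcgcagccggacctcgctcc
Anxa11: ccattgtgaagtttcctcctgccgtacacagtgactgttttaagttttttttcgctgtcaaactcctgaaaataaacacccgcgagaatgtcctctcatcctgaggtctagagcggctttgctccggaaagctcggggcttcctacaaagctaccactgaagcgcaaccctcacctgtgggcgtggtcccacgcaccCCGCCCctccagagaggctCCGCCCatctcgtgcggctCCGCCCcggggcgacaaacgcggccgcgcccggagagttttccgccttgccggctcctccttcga

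RefSeq promoter windows were matched for 8 of the 10 genes; S100a10 and Anxa3 had no entry, and Anxa4 and Anxa7 had 2 windows each, which gives 10 windows. AP-1 matches stood in 2 of the 10 windows, that of Anxa2 with 1 and that of S100a11 with 2, while 7.81% of all 32851 promoter windows of that length held at least 1. These are the leading annexin and the leading S100a gene by fold change, but Anxa1 and Anxa4, the next annexins, held none. Whether a match goes with the size of a rise was not tested. Anxa1 held the only MCAT match, 236 bases before its start, beside 14.7% of all windows, and a TATA motif 32 bases before it. The other TATA motif was in Anxa2, and 13.6% of all windows held one. GC boxes were present in 6 of the 10 windows, those of Anxa2, S100a11 and Anxa11, 1 of Anxa4 and both of Anxa7, which overlap, beside 35.7% of all windows. The CArG motif of serum response factor was found in none of the 10 windows, and in 1.63% of all windows. Base composition also differed. GC content was 63.7% in the Anxa2 window, 61.7% in that of S100a11, 59.7% in that of Anxa11 and 47.3% in that of Anxa1, beside a median of 52.7%. The Anxa11 window had 25 CpG pairs, 0.969 of the number its base composition predicts, and the Anxa1 window had 3, or 0.179, beside a median ratio of 0.384. A match is a run of letters and does not show that a factor binds there.

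**Figure D1:**
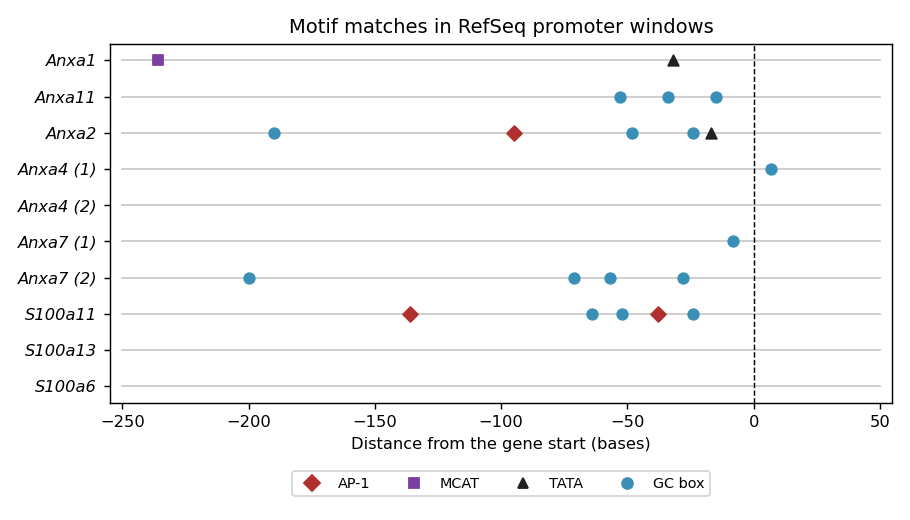
Positions of motif matches in the RefSeq promoter windows of 8 genes, as distance in bases from the gene start; each line is 1 window, and Anxa4 and Anxa7 have 2. The AP-1 matches stand in the windows of Anxa2 and S100a11 only, and the windows of S100a13 and S100a6 hold no match to any motif searched.

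Anxa2 encodes the annexin that forms a heterotetramer with an S100A10 dimer and links membranes to actin. The authors' deposited table gives it an adjusted p of 6.76e-143, the smallest of the members and number 83 of all 3939 listed genes. By size its rise was number 497 of the 2213 listed rises, so 22.5% of listed rises were as large or larger. The gene lies at chr9:69453620-69491795 on the forward strand (GRCm38, GENCODE M21). Anxa1, whose product is induced by glucocorticoids and limits the release of arachidonic acid, had an adjusted p of 3.40e-49 in the authors' deposited table. Its log2 fold change of 1.54 is 2.90-fold, and 26.6% of listed rises were at least as large in the authors' deposited table. Anxa1 lies at chr19:20373428-20390944 on the reverse strand.

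Anxa4 encodes an annexin studied most in secretory epithelia. It rose by 1.25 on a log2 scale, or 2.37-fold, with an adjusted p of 1.12e-39 in the authors' deposited table. Anxa3, known from neutrophil granules and from growing vessels, was at 1.09, or 2.13-fold, with an adjusted p of 6.69e-25 in the authors' deposited table. Both lay above the median listed rise of 1.06, Anxa3 narrowly so. Anxa4 occupies chr6:86736840-86793584 and Anxa3 chr5:96793339-96845966. No standard error is given for any gene, so neighbours in this order, such as Anxa2 and Anxa1 or Anxa4 and Anxa3, cannot be said to differ.

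Anxa7 and Anxa11 form a pair apart. Both encode annexins with a long N-terminal tail rich in glycine and proline that binds EF-hand proteins of the ALG-2 and sorcin type. In GENCODE M21 the coding sequence has 463 codons for Anxa7 and 503 for Anxa11, beside 319 to 346 for the other 4 listed annexins. The coding sequences of Anxa7 and Anxa11 matched at 62.3% of the bases of the shorter, the highest of the 15 annexin pairs, whose median was 58.1%. The pairs of Anxa4 with Anxa11 and of Anxa4 with Anxa3 came close behind, both at 61.4%. Anxa7 and Anxa11, the most similar by this measure, moved in opposite directions. Anxa7 was at 0.78, or 1.72-fold higher, with an adjusted p of 4.46e-45 in the authors' deposited table. The value of Anxa11 was -0.42, a 1.34-fold fall with an adjusted p of 1.98e-13, in the authors' deposited table. The difference of 1.21 on a log2 scale was not tested, since the authors' table gives no error. The fall of Anxa11 was among the smaller ones: 91.0% of the 1726 listed falls were as large or larger. Anxa7 lies at chr14:20455260-20480133 and Anxa11 at chr14:25842156-25886804, 5.36 Mb apart.

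**Figure D2:**
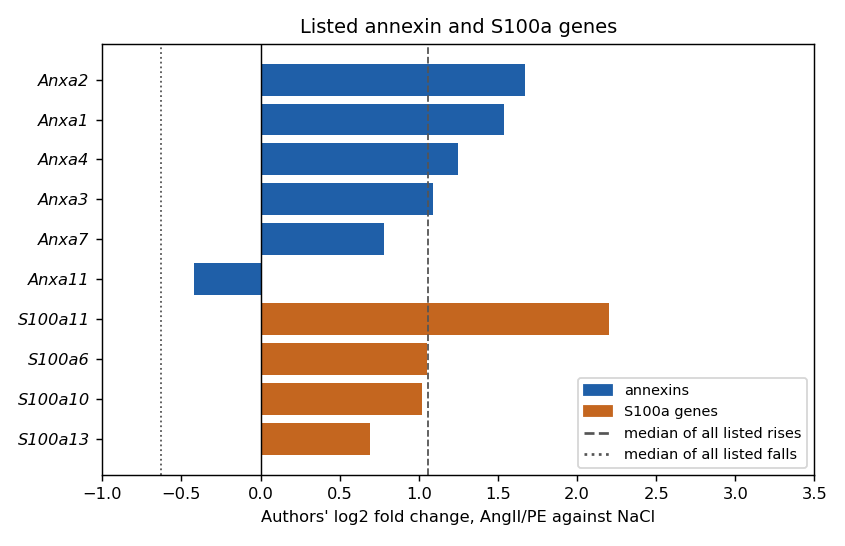
The authors' log2 fold change (horizontal axis) of each listed annexin (blue) and S100a gene (orange), AngII/PE against NaCl; the table gives no error, so none is drawn. Anxa2, Anxa1, Anxa4, Anxa3 and S100a11 pass the dashed line at 1.06, the median of all listed rises, and Anxa11 at -0.42 is the only bar below 0 and stops short of the dotted line at -0.63, the median of all listed falls.

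The other 6 annexins annotated in GENCODE M21, Anxa5, Anxa6, Anxa8, Anxa9, Anxa10 and Anxa13, have no value analysed here, and whether they changed is unknown. Anxa5, known as a phosphatidylserine probe for dying cells, and Anxa6, the annexin with a doubled core, are both known to be expressed in heart. Of 21923 protein coding symbols in that annotation, 15.2% were listed, but many are not expressed in heart and the number of genes the authors tested is not given.

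**Figure D3:**
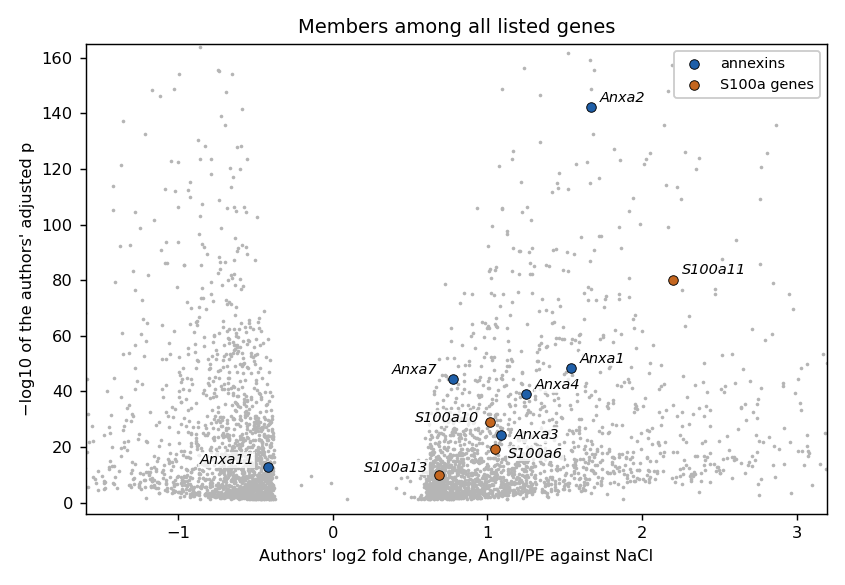
The authors' log2 fold change (horizontal axis) against −log10 of the authors' adjusted p (vertical axis) for listed genes (grey), with annexins in blue and S100a genes in orange; genes beyond the axis limits and the 16 with an adjusted p of 0 are not drawn. Anxa2 stands well above the other members, and Anxa11 lies at the inner edge of the listed falls.

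S100a11 was the member with the largest rise. Its product binds the N-terminal tail of annexin A1, and is also a partner of annexin A2 at damaged membranes. The authors' deposited table lists it at an adjusted p of 6.25e-81, and 12.5% of listed rises were at least as large. S100a6, encoding calcyclin, a partner of annexins A11 and A2, was at 1.05, or 2.06-fold, with an adjusted p of 3.54e-20 in the authors' deposited table. S100a10, the calcium-insensitive S100 protein that is held in the complex with annexin A2, was at 1.02, or 2.03-fold, with an adjusted p of 1.01e-29 in the authors' deposited table. S100a13, which takes part in the export of fibroblast growth factor 1 and interleukin 1 alpha, was lowest at 0.69, or 1.61-fold, with an adjusted p of 1.26e-10 in the authors' deposited table. For it, 87.2% of listed rises were as large or larger.

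Set side by side, the known binding pairs moved by unequal amounts. Anxa2 exceeded S100a10 by 0.65 in log2 fold change, a ratio of 1.56 between the folds, in the authors' deposited table. Anxa1 stood below S100a11 by the difference of -0.66 in the authors' deposited table. For Anxa11 and S100a6 the signs were opposite, with a difference of -1.47 in the authors' deposited table. Anxa7 and its partner Sri, encoding sorcin, were at 0.78 and 0.65 in the authors' deposited table, the closest pair of those compared. These differences have no error and were not tested. They compare fold changes, not levels, and so do not give the ratio of the partners within a library.

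The S100a genes lie in 2 groups on chromosome 3. From S100a1 to S100a9, chr3:90511034-90695721 holds 13 protein coding genes, 12 of them S100a genes, and 2 of the 13 have a value, S100a13 and S100a6. S100a11 at chr3:93520488-93526287 and S100a10 at chr3:93555080-93564643 are neighbours 28.8 kb apart on the same strand, 2.82 Mb beyond S100a9. Both members of that pair rose, but by 2.20 and 1.02 in the authors' deposited table. Of the 60 protein coding genes in the 2.82 Mb between, 1 has a value, Sprr1a, encoding a cornified envelope protein, at 9.60 in the authors' deposited table. The 10 S100a genes with no value analysed here include S100a1, the cardiac muscle member, S100a4, known from fibroblasts and macrophages, and the neutrophil pair S100a8 and S100a9. S100a1 and S100a13 are divergent neighbours whose annotated starts lie 42 bases apart.

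**Figure D4:**
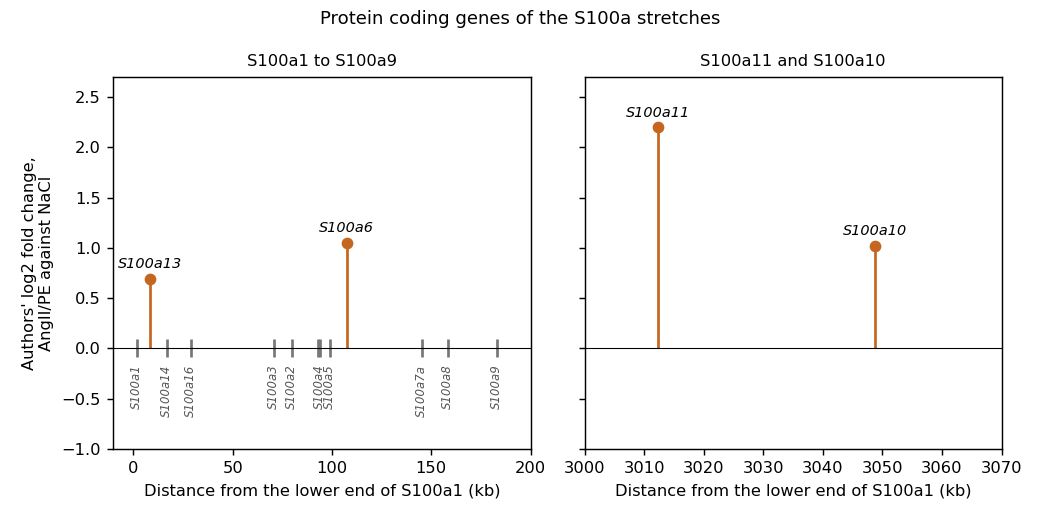
Protein coding genes of the chromosome 3 S100a groups by distance in kb from the lower end of S100a1 (horizontal axis), with the authors' log2 fold change where there is one (orange, vertical axis); grey ticks are genes with no value analysed here. In the left group S100a13 at 0.69 and S100a6 at 1.05 stand among 10 S100a genes without a value, and in the right group S100a11 at 2.20 is above S100a10 at 1.02.

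Copies of a gene elsewhere in the genome bear on S100a11. Its transcript matched 5 processed pseudogenes at 90% identity or more over at least 100 bases. Of these, 2 are themselves listed and were named after their values were seen. Gm7665 on chromosome 18, 98.7% identical over 297 bases, was at 2.40 with an adjusted p of 1.98e-17 in the authors' deposited table. Gm12854 on chromosome 4, 99.0% identical over 297 bases, was at 1.50 with an adjusted p of 1.32e-07 in the authors' deposited table. The sources used here do not give how reads that match several places were counted. Reads of S100a11 and of these copies may therefore have been divided among them, and its value is uncertain to that extent. Anxa11 matched the pseudogenes Gm2260 and Gm2274 at 100% and 99.7% identity. The longest alignments covered 27.4% and 25.4% of its transcript, and neither pseudogene has a value analysed here. The same uncertainty holds for Anxa11 over those stretches. The other 8 genes had no such match among annotated transcripts, and the rest of the genome was not searched. Genes on the opposite strand overlap Anxa1, Anxa2, Anxa4 and Anxa11, among them Anxa11os. On the same strand, Gm42603 overlaps Anxa3 and Mir3109 overlaps Anxa2. None of them has a value analysed here, and whether counting used strand is not given.

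Around the annexins, lists of related genes were described by their listed members. These lists were chosen with earlier results known, and nothing is read from a list's count or median, which stand beside 56.2% higher and a median of 0.67 over all listed genes, and beside 15.2% of protein coding symbols listed. The list for the cell-surface plasmin system that annexin A2 and S100A10 serve also holds related genes. Its genes were listed in 4 of 11 cases, all higher, with a median log2 fold change of 1.24. Ahnak2, a relative of the annexin A2 scaffold protein AHNAK, was at 1.82, and Serpine2, encoding protease nexin-1, at 1.34 in the authors' deposited table. Ctsb, encoding the lysosomal protease cathepsin B, was at 1.15 and Plaur, encoding the urokinase receptor, at 0.83 in the authors' deposited table. Plat, Plau, Plg and Ahnak are among the 7 with no value analysed here.

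Membrane repair genes were listed in 5 of 21 cases, 4 higher and 1 lower, with a median of 0.73, near the 0.67 of all listed genes. Myof, encoding myoferlin, a ferlin of membrane fusion, led at 1.72 with an adjusted p of 2.15e-117 in the authors' deposited table. Its relative Dysf, encoding dysferlin, which recruits vesicles to muscle membrane tears, was at 0.78 in the authors' deposited table. Capn2, encoding a subunit of the calcium-activated protease calpain, was at 0.73 and Bin1, a membrane-bending protein of the T-tubule, at 0.65 in the authors' deposited table. Cavin4, encoding a muscle caveolae protein, was lower, at -0.57, in the authors' deposited table. Trim72, encoding the repair protein MG53, has no value analysed here.

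Genes of the annexin A1 axis were listed in 4 of 17 cases, 3 higher and 1 lower, beside 56.2% higher over all listed genes, with a median of 1.71. Pla2g4a, encoding the cytosolic phospholipase A2 whose activity annexin A1 limits, was at 1.74, or 3.34-fold, with an adjusted p of 5.77e-28 in the authors' deposited table. Downstream of it, Ptgs2, encoding cyclooxygenase-2, was at 2.74 and Alox5ap, encoding the 5-lipoxygenase activating protein, at 1.68 in the authors' deposited table. Alox12, encoding a platelet-type lipoxygenase, fell, at -0.87 with an adjusted p of 1.64e-08 in the authors' deposited table. The formyl peptide receptor genes Fpr1 and Fpr2 have no value analysed here.

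Genes that expose phosphatidylserine, the lipid annexins bind, or read it on other cells were listed in 7 of 22 cases, all higher, beside 56.2% higher over all listed genes. Their median of 1.06 equals that of all listed rises. All 3 receptor tyrosine kinases that read it through bridging proteins were listed: Tyro3 at 1.81, Axl at 1.04 and Mertk at 0.74 in the authors' deposited table. Stab1, a scavenger receptor of macrophages and sinusoidal endothelium, was at 1.06 and Mfge8, a bridging protein, at 0.76 in the authors' deposited table. Plscr1, named a phospholipid scramblase and induced by interferon, was at 1.15 and Xkr4, of the scramblase family activated in cell death, at 1.59 in the authors' deposited table.

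Among 13 targets and receptors of S100 proteins or of annexins 8 were listed, 4 higher and 4 lower, close to the 56.2% and 43.8% of all listed genes, with a median of -0.03. Tlr4, a receptor for S100A8 and S100A9, was at 0.75 and Myh9, the non-muscle myosin that S100A4 binds, at 1.02 in the authors' deposited table. The calcium pump gene Atp2a2 and its inhibitor gene Pln, whose complex S100A1 binds in heart muscle, were at -0.96 and -0.91 in the authors' deposited table. Casp1 was at 1.28, Cd36 at -0.71 and Tppp at -0.76 in the authors' deposited table.

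**Figure D5:**
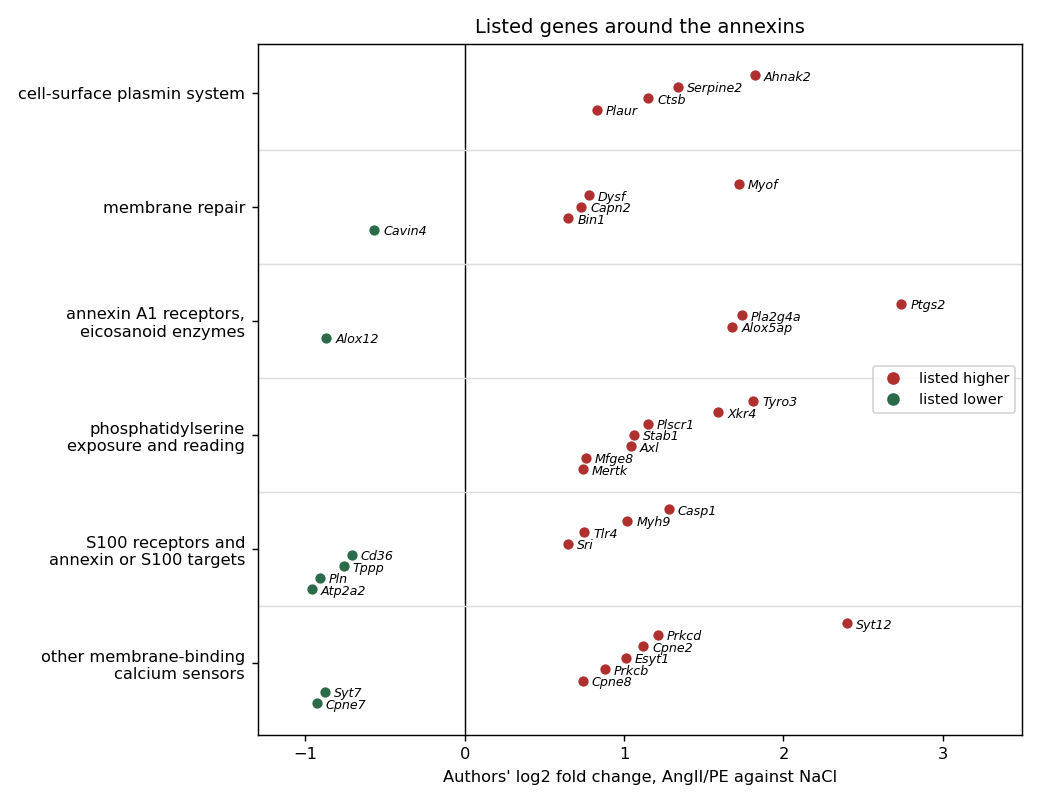
The authors' log2 fold change (horizontal axis) of each listed gene of 6 lists around the annexins, 1 point a gene, red above 0 and green below. The plasmin and phosphatidylserine lists hold no point below 0, while the list of S100 receptors and targets has 4 points on each side.

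The tissue is a mixture of cells, and fewer cells of a type cannot be told apart from less RNA per cell. Macrophage markers were higher in 8 of 8, from 0.79 to 3.40 in the authors' deposited table. The fibroblast genes listed, 3 of 7, were higher, from 3.17 to 5.68 in the authors' deposited table, while Pdgfra and Tcf21 have no value analysed here. Cardiomyocyte markers were lower in 5 of 5 listed of 8, from -1.17 to -0.65, and endothelial markers in 5 of 5 of 7, from -0.92 to -0.51, in the authors' deposited table. Neutrophil markers had 2 of 7 listed, both higher, with S100a8 and S100a9 among those without a value. Smooth muscle and pericyte markers had 4 of 7 listed, 3 higher and 1 lower, from -0.52 for Rgs5 to 3.57 for Cnn1 in the authors' deposited table. Of 7 mesothelial and epicardial markers, Krt18 alone was listed, at 4.86 in the authors' deposited table. The 3 listed atrial muscle markers were at -5.30 to -3.03 in the authors' deposited table. Macrophages and fibroblasts are known to express Anxa1, Anxa2 and S100a11, and the part that these or the other cell types have in the rises was not tested.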

How the data were processed

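RNA from 12 libraries, 6 treated and 6 control, was sequenced. The submitters' processing notes name build mm10 and the tools cutadapt, STAR (2.4.2a), featureCounts of Subread, and DESeq2, without roles or settings. An uneven selection of listed genes or an offset between libraries would shift the split of rises and falls. Per the file headers, the deposited table holds 1 average log2 fold change a gene, with a p-value that the authors adjusted for false discovery and with no error. It holds listed genes only, the highest adjusted p being 0.0497. The depth per library is unknown, and p-values measure the spread between libraries that may not be separate mice. Columns of values per library used: 0.

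Computed here were counts by direction, medians, ranks and differences of fold changes, with Python 3.11.15 and pandas 2.3.3, and motif and coding comparisons with Biopython 1.88 and blastn 2.17.0 (megablast, 90% identity, at least 100 bases); counting and motif search were tested on simulated data. Coding identity was used in place of protein identity. Positions are from GENCODE M21 on GRCm38, the assembly of mm10; promoters are from RefSeq on GRCm38.p6. No test was added to the authors'. Members, lists and their named genes were chosen with earlier results of these data known; every member and listed partner could be named. Recentring subtracted 0.11, the midpoint of the 5% quantiles of listed rises (0.63) and falls (-0.41). One gene of the plasmin list is not reported here and was left out of its count and median.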

Additional observations from a re-analysis of the deposited data

How the results depend on the processing

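Recentring took the same 0.11 from every gene, less than the size of any member's or listed partner's value, so it could turn the direction of none of them. Anxa2 was then at 1.55, Anxa3 at 0.98, S100a11 at 2.09 and Anxa11 at -0.54. It took the number of all listed rises from 2213 to 2212. No member and no listed partner gene is a pseudogene, RIKEN clone or predicted model. Leaving those out could therefore change only the counts over all listed genes. The S100 family counts repeat those of the 4 listed S100a genes. Of the 20 counts by list and direction, 20 stayed within 1.5 times at an adjusted p threshold of 0.01. All 20 also did under recentring, and with pseudogenes, RIKEN clones and predicted models left out, settings in which only the counts over all listed genes could change. At an adjusted p of 0.001, 19 did; the lower genes among other membrane-binding calcium sensors were then 1. When a log2 fold change of 1 or more in size was required, 9 of the 20 counts moved and 11 stayed within 1.5 times. By construction a count could only stay or fall there, as fewer genes remain. Then 4 annexins, Anxa2, Anxa1, Anxa4 and Anxa3, were higher and 0 lower, beside 30.7% of all listed genes higher (1211) and 6.96% lower (274). Membrane repair kept 1 higher and 0 lower, the annexin A1 list 0 lower, S100 receptors and targets 2 higher and 0 lower, and the other calcium sensors 0 lower. With recentring added, 3 annexins were higher and 0 lower, and 1 S100a gene, also 1 of the S100 family, was higher, beside 1029 higher and 390 lower genes in all. In that setting membrane repair kept 1 higher and 0 lower, the annexin A1 list 0 lower, phosphatidylserine genes 3 higher, S100 receptors and targets 1 higher and 2 lower, and other calcium sensors 3 higher and 1 lower. No paired analysis was possible because values of single libraries were not analysed here and the labels number no replicates. Alternatives on values per library, leaving out libraries included, were not run, as only the authors' comparison was analysed.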

Other observations

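Other members of membrane-binding calcium sensor families were listed in 8 of 22 cases, 6 higher and 2 lower, with a median log2 fold change of 0.95. Over all listed genes 56.2% were higher and the median was 0.67, and 15.2% of protein coding symbols were listed, so nothing is read from these counts. Syt12, an unusual synaptotagmin that does not bind calcium, had the largest value, 2.40 with an adjusted p of 8.43e-32 in the authors' deposited table. Syt7, a synaptotagmin of lysosome exocytosis and membrane repair, was at -0.88 with an adjusted p of 4.25e-49 in the authors' deposited table. The copines, C2-domain proteins, were mixed: Cpne2 was at 1.12, Cpne8 at 0.74 and Cpne7 at -0.93 in the authors' deposited table. Esyt1, a tether between the endoplasmic reticulum and the plasma membrane, was at 1.01 in the authors' deposited table. The protein kinase C genes Prkcd and Prkcb were at 1.21 and 0.88 in the authors' deposited table.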
